A study of Mus musculus with 3 samples.

Results

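Proteasome genes were taken as all genes whose symbol starts with Psma, Psmb, Psmc, Psmd, Psme, Psmf or Psmg and that had a probe set listing only 1 gene. There were 49 such genes among 18194 named genes on the arrays. Each was represented by its brightest probe set. A gene counted as measured when its signal reached a floor of 110.4, the median of all signals, on at least 1 array, and 48 of the 49 did so. These 48 were over the floor on all 3 arrays. The exception was Psmb11, the thymus-specific catalytic subunit, whose signal did not exceed 18.5 on any array. Psmc3ip and Psme3ip1 meet the naming rule but encode no subunit, so they are described apart. That left 42 constitutive genes and 4 of the 5 immunoproteasome genes. Psme2 is listed only with a related gene on its probe set and is given no value.

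The samples were mouse LSK cells, a fraction of blood-forming cells defined by surface markers, which contains the haematopoietic stem cells along with multipotent progenitors. Each of 3 genotypes was hybridised to 1 array, namely wild type (WT), p53 -/- (p53 KO) and p53 -/- Mef -/- (DKO), so absence of p53 is common to the p53 KO and DKO arrays. The sources used here give no strain, age, sex, treatment or number of animals. With 1 array a genotype there is no error between samples, no test and no p-value, and every difference below compares a pair of arrays. In such bulk samples, fewer cells of a type and less RNA per cell cannot be told apart.

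Median signal over all probe sets was 98.0 for WT, 105 for p53 KO and 129 for DKO. The 3' to 5' ratio was 5.85, 6.61 and 5.90 for Gapdh and 8.29, 6.20 and 9.19 for actin, in that order of arrays. Elf4, which encodes Mef, was near the floor, at 57.4, 182 and 151, so its DKO signal was above its WT signal. The sources used here do not say whether its probe sets lie in the deleted part. A further Elf4 probe set, at 74.3, 173 and 129, was also lowest on the array labelled WT. Every direction that involves the array labelled DKO or the one labelled WT therefore rests on those labels.

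The proteasome degrades proteins tagged with ubiquitin. Its 20S core is a barrel of outer alpha and inner beta rings, and Psmb5, Psmb6 and Psmb7 carry the catalytic sites. The 19S cap unfolds substrates with ATPase subunits of the Psmc family and binds and trims ubiquitin chains with non-ATPase subunits of the Psmd family. In blood cells and after interferon exposure, Psmb8, Psmb9 and Psmb10 can take the places of Psmb5, Psmb6 and Psmb7 in newly built cores. The resulting immunoproteasome, often capped by the PA28 ring of Psme1 and Psme2, yields peptides suited to class I antigen presentation.

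Promoters of members whose values are described below are shown to place them beside the regulators of these genes. RefSeq windows on GRCm38.p6, from 250 bases before to 50 after each start, were found for 41 of the 49 genes. Psmb9 lies head to head with Tap1, a peptide transporter gene, and the first sequence is the stretch of 225 bases between their starts, with a CCAAT box (CCAAT, here on the opposite strand) in capitals. The others are the 120 bases before the start, with capitals for a STAT element (TTCNNNGAA) in Psmb8 and for an antioxidant response element (TGACNNNGC), the site type bound by Nrf1 and Nrf2, in Psmb5 and Psmb6.
Psmb9, chr17:34187331-34187555, minus strand: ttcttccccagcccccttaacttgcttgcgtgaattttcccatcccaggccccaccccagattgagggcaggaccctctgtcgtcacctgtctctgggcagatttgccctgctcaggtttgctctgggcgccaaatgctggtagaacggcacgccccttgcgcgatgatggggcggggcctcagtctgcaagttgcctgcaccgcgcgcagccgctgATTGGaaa
Psmb8, chr17:34198075-34198194, plus strand: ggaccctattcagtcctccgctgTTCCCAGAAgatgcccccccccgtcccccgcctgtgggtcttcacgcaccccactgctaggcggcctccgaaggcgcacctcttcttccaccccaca
Psmb5, chr14:54617996-54618115, minus strand: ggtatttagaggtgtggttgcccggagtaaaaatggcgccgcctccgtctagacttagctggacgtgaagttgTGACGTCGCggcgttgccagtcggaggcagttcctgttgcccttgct
Psmb6, chr11:70525237-70525356, plus strand: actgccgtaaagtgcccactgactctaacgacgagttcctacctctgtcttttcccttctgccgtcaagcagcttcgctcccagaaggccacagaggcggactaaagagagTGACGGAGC

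Each motif was searched on both strands of the whole windows, where the letters searched for can overlap each other. The antioxidant response element was present for 6 of 34 constitutive genes (17.6%), namely Psmb5, Psmb6, Psmc6, Psmd9, Psmd12 and Psme4, and for 0 of 4 immunoproteasome genes, against 13.99% of 27025 genes in the table. The STAT element was present for Psmb8 and, among constitutive genes, for Psmd2 and Psmg1, against 9.55% of all genes. An IRF element (GAAA, any 2 bases, then GAAA) was present for Psme1, Psmb3, Psmd4, Psmd9 and Psmg4, against 3.99% of all genes. A CCAAT box was present for 12 constitutive genes (35.3%) and for Psmb9, against 41.1% of all genes. These are matches of letters only, and none was shown to be bound.

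The 4 measured immunoproteasome genes had their lowest signal on the p53 KO array, as did 36.2% of all measured genes and 39.5% of those with a mean signal of at least 1000. Psmb8, which replaces Psmb5, gave 1849 for WT, 1580.3 for p53 KO and 2502 for DKO. The DKO array was thus the highest for Psmb8, with a log2 difference of 0.44 from WT and of 0.66 from p53 KO. Psmb9, which replaces Psmb6, had signals of 1736, 934 and 1589 in the same order. Its p53 KO signal was 1.86-fold below WT, and the DKO signal was close to that of WT (log2 difference -0.13). Psmb10, which replaces Psmb7, had signals of 1107, 882 and 1405, so that it was highest on the DKO array as well. Psme1, a subunit of the PA28 cap, had signals of 3916, 2656 and 3493, with WT the highest. Log2 differences for p53 KO against WT thus ran from -0.89 for Psmb9 to -0.23 for Psmb8. For DKO against p53 KO they ran from 0.40 for Psme1 to 0.77 for Psmb9.

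Not all probe sets showed this order. The further probe set of Psmb8 was dimmer, at 407, 545 and 646, and was lowest on the WT array, so the sign of Psmb8 for p53 KO against WT rests on the probe set chosen. It was again highest on the DKO array, but with a smaller log2 difference of 0.24 from p53 KO. Psmb9, Psmb10 and Psme1 each had only 1 probe set that lists a single gene.

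**Figure D1:**
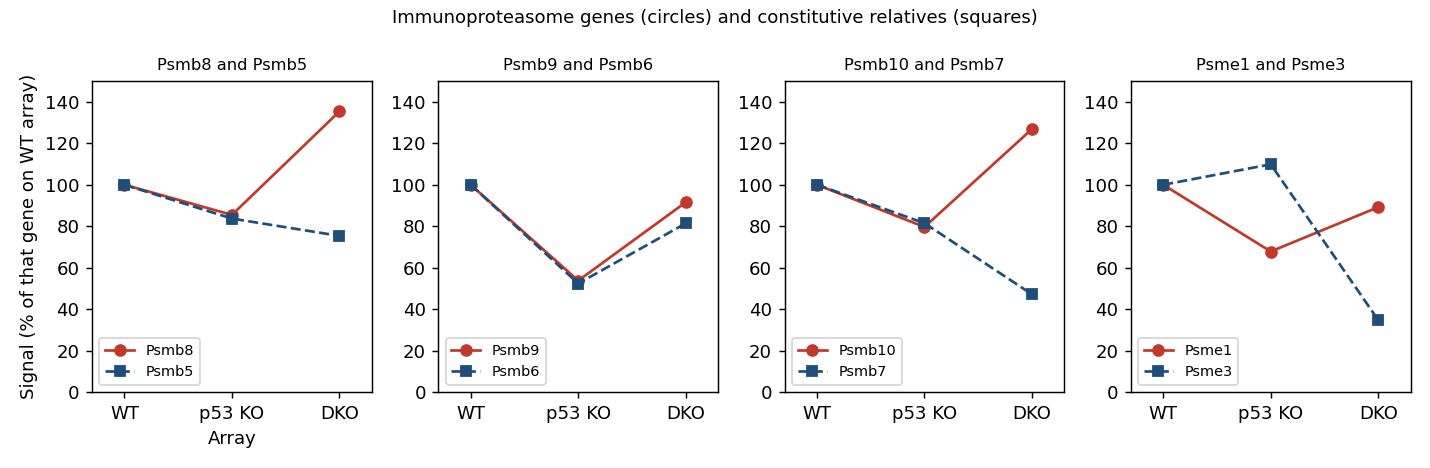
Signal of each gene as a percent of its own signal on the WT array (vertical axis, linear, from 0) on the 3 arrays (horizontal axis), 1 array a genotype and so with no error bars. Red circles are immunoproteasome genes and blue squares the constitutive gene of the same place in the core, or in the last panel Psme3, a relative of Psme1. Psmb10 and Psmb7 part on the DKO array, while Psmb9 and Psmb6 both dip on the p53 KO array.

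The constitutive catalytic genes did not share a course over the arrays. Psmb5 had signals of 4972, 4162 and 3747 and was lowest on the DKO array. Psmb6 had signals of 4524, 2371 and 3683 and was lowest on the p53 KO array. Psmb7 had signals of 1902, 1549.7 and 898, so that its DKO signal was 2.12-fold below WT. Taking each immunoproteasome gene less the gene it replaces, the log2 differences for p53 KO against WT nearly cancelled, at 0.03 for Psmb8 less Psmb5, 0.04 for Psmb9 less Psmb6 and -0.03 for Psmb10 less Psmb7. For DKO against WT the same quantities were 0.84, 0.17 and 1.43. For DKO against p53 KO they were 0.81, 0.13 and 1.46. On the array labelled DKO the immunoproteasome gene was therefore higher relative to its counterpart for Psmb8 and Psmb10, by 1.80-fold and 2.69-fold against WT, and hardly so for Psmb9. Such a ratio shows unequal change and not which of the genes changed. The value of 0.03 for Psmb8 less Psmb5 rests on the Psmb8 probe set chosen. For p53 KO against WT the further Psmb8 probe set gave 0.42, beside -0.23 for the one used. For DKO against p53 KO it gave 0.24, beside 0.66.

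The effect of losing p53 was addressed by setting p53 KO cells against WT cells. Most constitutive proteasome genes had a slightly lower signal without p53. Of the 42, 37 had a difference below 0, against 47.0% of the 12597 measured genes, and 5 had one above 0, against 46.2%. Among the 4609 genes with a mean signal of at least 1000, the range in which 41 of the 46 constitutive and immunoproteasome genes lay, 55.8% were below 0. The median log2 difference was -0.23, beside 0.00 over all measured genes and -0.07 over these brighter genes. All 8 measured alpha genes and all 7 measured beta genes were lower, with medians of -0.21 and -0.30. The 19S ATPase genes were lower in 6 of 6 (median -0.29) and the non-ATPase genes in 10 of 11 (median -0.22). The ATPase genes ran only from -0.40 for Psmc5 to -0.02 for Psmc6. The typical core or cap gene was thus lower by less than 1.5-fold.

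By role the assembly chaperones had the lowest median, -0.62. Psmg1, Psmg2, Psmg3 and Psmg4, which encode the chaperones that help to build the alpha ring, were all at least 1.5-fold lower. Psmg3 gave 1935 for WT, 976 for p53 KO and 1384 for DKO, and its p53 KO signal was 1.98-fold below WT. Psmg2 had signals of 3379, 2012 and 2050.0, and both arrays without p53 were thus low. Psmg1 signals were 2285, 1483 and 1907. Psmg4 was dim at 444, 271 and 375, and like Psmg1 and Psmg3 it was lowest on the p53 KO array. The further probe set of Psmg3 gave a log2 difference of -0.42, and those of Psmg2 gave -0.33 and 0.16. The 0.16 came from a probe set near the floor, at 107 for WT and 123 for p53 KO. Psmd9, a chaperone of the 19S base, was the highest of the constitutive genes, with signals of 429.8, 588 and 437 and a log2 difference of 0.45. Its further probe sets gave -0.07 and 0. These were near or under the floor on the WT and p53 KO arrays, so the floor sets both values.

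In all, the p53 KO signal was at least 1.5-fold lower for 9 of the 46 genes (19.6%), against 12.5% of measured genes, and 0 were at least 1.5-fold higher, against 15.4%. The other members were Psmb9, Psmb6, Psmb3, Psmd6 and Psmd7. Psmd7, a lid subunit that pairs with the deubiquitinase Psmd14, had signals of 1077, 544 and 611 and was 1.98-fold lower on p53 KO. Psmd6, also of the lid, had signals of 10180.0, 5581 and 10446, so that only the p53 KO array was low, and its further probe set gave a smaller difference of -0.44. Psmb3, a non-catalytic beta subunit, had signals of 11474, 6525 and 7822, but its further probe set differed by only -0.09. No member was at least 2-fold lower or at least 2-fold higher, against 3.19% and 6.51% of measured genes. The activators Psme3 and Psme4 and the inhibitor Psmf1 had log2 differences of 0.14, 0.17 and 0.31, the first pair smaller than the SD of 0.30 between probe sets. Further probe sets of Psme4 gave -0.60, 0.19 and 0.54, so its direction rests on the probe set chosen.

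**Figure D2:**
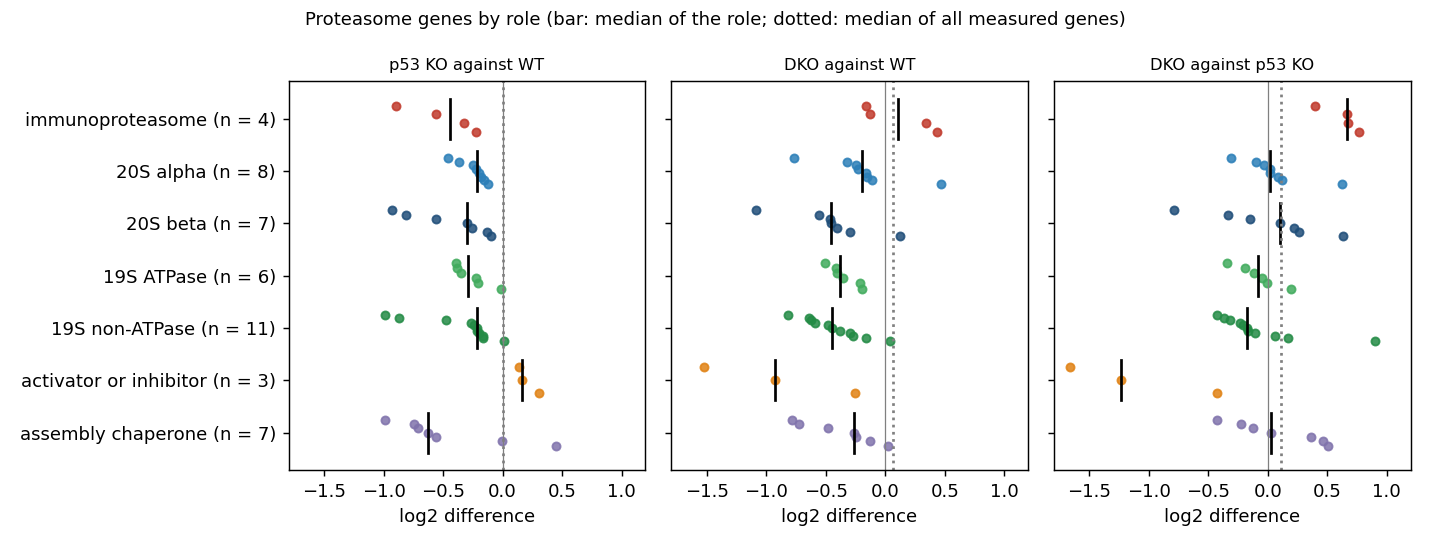
Log2 difference (horizontal axis) of each measured proteasome gene, 1 point a gene, by role (vertical axis) in the 3 comparisons. Black bars are medians of the role, dotted lines the median of all measured genes and the solid grey line 0. Most core and cap genes lie left of the dotted line in the comparisons against WT, and the 4 immunoproteasome genes lie right of it for DKO against p53 KO.

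The combined loss of p53 and Mef was addressed by setting the array labelled DKO against WT, the same WT array as above. Constitutive genes were lower here too, with a median log2 difference of -0.37 beside 0.07 over all measured genes and -0.08 over those with a mean signal of at least 1000. Of the 42, 38 had a difference below 0, against 41.1% of measured genes, and 4 had one above 0, against 55.9%. Of the brighter genes 57.3% were below 0. By role the medians were -0.20 for alpha genes, -0.46 for beta genes, -0.38 for ATPase genes, -0.44 for non-ATPase genes and -0.26 for assembly chaperones. The immunoproteasome median was 0.11, with Psmb8 and Psmb10 higher and Psmb9 and Psme1 lower. With only probe sets unique to a transcript, which leave out Psmb8, it was -0.13.

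The lowest member was Psme3, which encodes the nuclear cap PA28 gamma that promotes degradation without ubiquitin. It gave 2110.0 for WT, 2318 for p53 KO and 734 for DKO. Only the DKO array was low, by 2.88-fold against WT. A further Psme3 probe set, at 849, 1034 and 573, was also lowest on DKO, with a smaller log2 difference of -0.57. Psmf1, which encodes the inhibitor PI31, had signals of 1430.4, 1769 and 753 and was 1.90-fold lower on DKO than on WT. Its 3 other probe sets gave -0.36, -0.68 and 0.04. Psme4, which encodes the cap protein PA200, had signals of 3091, 3467 and 2585, a log2 difference of -0.26, while further probe sets gave -1.44, -0.28 and 0.49.

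Of the 46 genes, 10 were at least 1.5-fold lower on the DKO array (21.7%), against 9.52% of measured genes, and 0 were at least 1.5-fold higher, against 17.1%. The 2 at least 2-fold lower were Psme3 and Psmb7, against 3.10% of measured genes, and 0 were at least 2-fold higher, against 5.22%. The others past 1.5-fold were Psmf1, Psma7, Psmd4, Psmd5, Psmd7, Psmd12, Psmd14 and Psmg2. Further measured probe sets gave smaller differences for Psmd7 (-0.18 beside -0.82) and for Psmg2 (-0.26 and 0 beside -0.72). The 0 came from a probe set under the floor on both of these arrays. Psma7, an alpha ring subunit, had signals of 4661, 3382 and 2735, and its further probe set gave a like difference of -0.66 beside -0.77. Psmd4, a ubiquitin receptor of the cap, had signals of 3265, 2846 and 2113, and its further measured probe set gave -0.65 beside -0.63. Psmd14, the deubiquitinase of the lid, had signals of 9299, 7989 and 6184. Psmd12, a scaffold subunit of the lid, had signals of 5277, 3792 and 3384. Psmd5, a chaperone of the 19S base, had signals of 3505, 2382 and 2037. For Psma7, Psmd4, Psmd14, Psmd12 and Psmd5 the DKO array was the lowest of the 3. Psma8, the testis form of an alpha subunit, was the highest member for DKO against WT, at 175, 157 and 242 and so close to the floor.

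The further loss of Mef was addressed by setting the array labelled DKO against p53 KO, both without p53. The immunoproteasome genes were higher on the DKO array in 4 of 4, against 58.8% of measured genes, with a median log2 difference of 0.67 beside 0.11 over all measured genes. Relative to that overall shift the immunoproteasome median was 0.56. The constitutive genes had a median of -0.10, or -0.21 relative to the overall shift, and 25 of 42 were lower, against 39.7% of measured genes. Over the genes with a mean signal of at least 1000 the median was 0.03 and 47.1% were lower, so the contrast with comparable genes was smaller. The overall shift was 0.01 after cyclic loess scaling, where the medians were 0.63 and -0.07. The sign of the constitutive median was not stable, since it was 0.0050 when each gene's probe sets were averaged and 0.0054 with unique probe sets.

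Psmb8, Psmb9 and Psmb10 were each at least 1.5-fold higher on DKO than on p53 KO, by 1.58-fold, 1.70-fold and 1.59-fold. Psma8, Psmb6 and Psmd6 were the other members past that measure, so that 6 of 46 were at least 1.5-fold higher, against 17.0% of measured genes. Proteasome genes as a whole were thus past that measure no more often than other genes. The further probe set of Psmd6 differed by 0.03, beside 0.90 for the one used. That of Psmb8 differed by 0.24, beside 0.66, and so was not past 1.5-fold. At least 1.5-fold lower were Psme3, Psmf1 and Psmb7, 3 of 46 (6.52%) against 12.2% of measured genes. Psme3 was 3.16-fold lower and Psmf1 2.35-fold lower, and these were the 2 members at least 2-fold lower, against 5.93% of measured genes. None was at least 2-fold higher, against 4.10%. Further probe sets of Psmf1 gave -0.70, -0.89 and -0.08, and that of Psme3 gave -0.85. When the probe sets of each gene were averaged, 0 members were at least 2-fold lower.

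Many single differences were smaller than the disagreement between probe sets of a gene. Over 5511 genes with a further measured probe set, the robust SD of a single probe set's log2 difference was 0.30 when p53 KO was set against WT. It was 0.35 when DKO was set against WT and 0.36 when DKO was set against p53 KO. Of the 42 constitutive genes, 24, 19 and 29 differed by less than that SD in the same order of comparisons. Of the 4 immunoproteasome genes, 1, 3 and 0 did so. The same counts were not taken over all measured genes, whose quartiles were -0.32 and 0.33, -0.23 and 0.43, and -0.22 and 0.44. These counts therefore do not set the members apart from other genes. Variation from animal to animal or sort to sort is not part of the SD between probe sets. Of 23 proteasome genes with a further measured probe set, 15, 16 and 8 were lower by both in the same order of comparisons. The signs matched for 18, 18 and 14 of the 23, against 67.2%, 64.6% and 67.4% of the 5511 genes. Among the 12 whose second brightest probe set had a mean signal of at least 1000, 10 were lower by both probe sets for p53 KO against WT. The medians were -0.23 by the probe set used and -0.38 by the further one. For DKO against WT 10 of the 12 were again lower by both, with medians of -0.37 and -0.45. For DKO against p53 KO 5 were lower by both, and the medians were -0.15 and -0.05. Most of these 12 genes were therefore lower than on WT by both of their bright probe sets. The same count was not taken over other genes with bright probe sets. By the probe set used alone, 55.8% and 57.3% of the 4609 brighter genes were below 0 for p53 KO and DKO against WT.

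**Figure D3:**
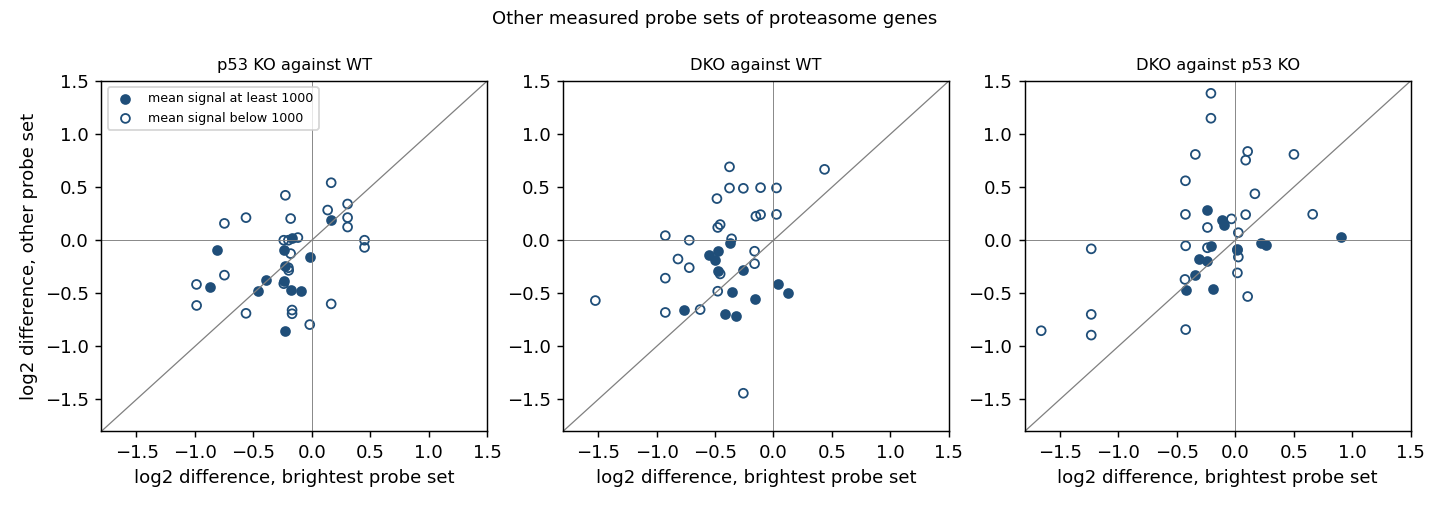
Log2 difference of each other measured probe set of a proteasome gene (vertical axis) against that of the brightest probe set of the gene (horizontal axis), with the line of equality in grey. Filled points have a mean signal of at least 1000 and open points less. Filled points lie mostly below 0 on both axes in the comparisons against WT, and open points scatter to either side.

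Psmc3ip, a recombination cofactor named for binding to Psmc3, had signals of 1508, 804 and 1568 and was 1.87-fold lower on p53 KO than on WT. Psme3ip1, which encodes a protein that binds Psme3, had signals of 1979.9, 1613 and 1765, with log2 differences from WT of -0.30 and -0.17.

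Genes that act with the proteasome but carry other names were given on a list of 25 symbols, of which 17 were measured. Their medians were -0.13 and -0.08 when p53 KO and DKO were each set against WT, and -0.02 when DKO was set against p53 KO. Against WT 4 and 3 of the 17 were at least 1.5-fold lower, against 12.5% and 9.52% of measured genes. In either comparison 0 were at least 1.5-fold higher, against 15.4% and 17.1%. For DKO against p53 KO 1 was lower and 2 were higher by that measure, against 12.2% and 17.0%. Rad23b, a shuttle that delivers ubiquitin-tagged substrates, had signals of 2554, 1381 and 1141 and was low on both p53-null arrays. Ufd1, a cofactor of the Vcp segregase, had signals of 835, 765 and 325 and was low only on DKO. Pomp, the chaperone that matures the 20S core, had signals of 2592, 1879 and 2224.

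Nrf1 (Nfe2l1) and Nrf2 (Nfe2l2) activate constitutive proteasome genes when proteasome capacity is short or oxidants rise. Of 15 listed genes of this pathway 13 were measured, with medians of 0.10, -0.24 and -0.26 in the same order of comparisons. Nfe2l1 itself had signals of 437, 427 and 463. Nfe2l2 had signals of 4731, 2952 and 2523 and was lowest on DKO. Gclm, a glutathione synthesis gene and known Nrf2 target, had signals of 5511, 4958 and 2154. The list was mixed, since for DKO against WT 8 of the 13 were lower and 4 higher, against 41.1% and 55.9% of measured genes. At least 1.5-fold lower were 2, 5 and 4 of the 13, against 12.5%, 9.52% and 12.2% of measured genes. At least 1.5-fold higher were 1, 0 and 0, against 15.4%, 17.1% and 17.0%. Among constitutive proteasome genes the 6 with the antioxidant response element had a median of -0.14 for p53 KO against WT and -0.33 for DKO against WT. The 28 without it had -0.23 and -0.31. For DKO against p53 KO the medians were -0.25 with it and -0.10 without it. The genes then ranged from -0.43 to 0.64 and from -1.66 to 0.90.

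Class I antigen processing genes, of which 12 of 14 were measured, had medians of -0.11, -0.09 and 0.20. Tap1, which shares the printed stretch with Psmb9, gave 2380 for WT, 1141 for p53 KO and 1593 for DKO. Like Psmb9 it was lowest on the p53 KO array, with log2 differences of -1.06 between p53 KO and WT and of 0.48 between DKO and p53 KO. Nlrc5, the coactivator of class I genes, had signals of 1400.1, 764 and 1372 and was low only on p53 KO. The class I gene H2-K1 had signals of 13922, 8260.2 and 9576. Of the 12, 3, 0 and 0 were at least 1.5-fold lower, against 12.5%, 9.52% and 12.2% of measured genes, and 0, 0 and 1 were at least 1.5-fold higher, against 15.4%, 17.1% and 17.0%.

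Interferon signalling and response genes were mixed. Of 23 listed, 20 were measured, with medians of 0.24, 0.09 and -0.18. For p53 KO against WT 15 were higher and 5 lower, against 46.2% and 47.0% of measured genes. The antiviral gene Rsad2 had signals of 3855, 17019 and 3308, so that the p53 KO array, lowest for the immunoproteasome genes, was the highest here. Oas1a had signals of 1056, 2372 and 1192. Irf1, a direct activator of Psmb9, had signals of 2009, 2100.4 and 2522. Ifngr1, a chain of the interferon gamma receptor, had signals of 2526, 1470.0 and 1953. Like the immunoproteasome genes, Ifngr1 was thus lowest on the p53 KO array. Of the 20, 5, 2 and 0 were at least 1.5-fold higher, against 15.4%, 17.1% and 17.0% of measured genes, and 1, 1 and 3 were at least 1.5-fold lower, against 12.5%, 9.52% and 12.2%.

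Marker genes of several cell types differed between the arrays. Kit, which defines LSK cells, gave 4996 for WT, 2522 for p53 KO and 4873 for DKO, and the 6 stem and progenitor markers on the arrays summed to 16857, 13383 and 27839. Ly6a, the gene of the other defining marker, Sca-1, was not used here. Monocyte and macrophage markers (7 of 8 on the arrays, all over the floor) summed to 9799, 33362 and 16052, and B lymphoid markers (6 of 7) to 1317, 4223 and 1964. Dendritic cell markers (6 of 6) summed to 8579, 12958 and 11133. They include Flt3, also a stem and progenitor marker, which had signals of 2387, 1492 and 4728, and without it the sums were 6193, 11466 and 6406. Granulocyte markers (7 of 7) summed to 101419, 163547 and 71601, and megakaryocyte markers (5 of 5) to 3571, 11387 and 6329. Unlike the other genes of these lists, Elane (800, 1719 and 2308) and Itga2b (1215, 1975 and 2366) were highest on the DKO array. Erythroid markers (6 of 7) summed to 40187, 41875 and 7953, with the alpha globin gene Hba-a1 under the floor on every array. Alas2 alone, at 1787, 11459 and 1091, put the p53 KO sum above WT. Without it the sums were 38400, 30417 and 6862, and 4 of the 4 other measured genes were lower on p53 KO than on WT. Of 5 T cell markers 0, 2 and 1 reached the floor, and Cd3e, Cd3g and Cd2 did so on no array. Summed monocyte and macrophage, granulocyte and B lymphoid markers were thus highest on the p53 KO array. By the probe sets used, the immunoproteasome signals were lowest on that array. The part of these cell types in the proteasome differences was not tested, nor was that of the lower erythroid markers on the DKO array.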

How the data were processed

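The deposited table holds linear signal intensities of 45101 probe sets on each of 3 arrays. Per the submitters' processing notes the authors used GCOS and MAS5, with no version or genome build given in the sources used here. All arrays had a 2% trimmed mean of 500.0, which shows that the deposited intensities had been scaled globally. Symbols came from the platform annotation, updated through Entrez IDs for 34754 probe sets.

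Signals under 110.356, the median of all signals, were set to it and log2 was taken. Each gene used its probe set with the highest mean over the 3 arrays. A difference is log2 of the array named first less log2 of the array named after "against". The division by role, the fold limits of 1.5 and 2 and the further lists were set from textbook knowledge; members and lists were chosen with earlier results of these data known. Named genes were the immunoproteasome and catalytic genes, all members at least 1.5-fold apart, and the 3 highest and 3 lowest of each comparison. Up to 4 genes of each further list were named as well, planned as those with the largest differences. Pomp, Nfe2l1, Irf1 and Ifngr1 were named though not among these. Genes with larger differences were left out, among them Ubqln4 (1509, 802 and 1692 for WT, p53 KO and DKO), Hmox1 (56.7, 390 and 40.7) and Irf8 (1798, 4541 and 3816). The limit on mean signal of 1000, the probe set comparison, the split by promoter motif and the marker sums without Alas2 or Flt3 were added after seeing the data. No test was possible. The calculation was tested on simulated arrays with shifts well past these limits; shifts near them were not simulated. The p53 gene's own signal is not reported here. Python 3.11.15, pandas 2.3.3 and limma 3.58.1 (quantile and cyclic loess scaling) were used.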

Additional observations from a re-analysis of the deposited data

How the results depend on the processing

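The alternatives were quantile and cyclic loess scaling, a lower or higher floor (25th or 75th percentile), a pseudocount of 32 in place of the floor, averaging all probe sets of a gene, using only probe sets unique to a transcript, and a limit of 1.5-fold. A median was taken as moved when it shifted by more than the probe set SD allows for its number of genes. The constitutive median stayed below 0 against WT in all 7, from -0.32 to -0.17 for p53 KO and from -0.39 to -0.27 for DKO. The values that moved were -0.17 (cyclic loess) and -0.32 (unique probe sets, 36 genes) for p53 KO, and -0.29 (cyclic loess), -0.27 (mean of probe sets) and -0.29 (unique probe sets) for DKO. For DKO against p53 KO the constitutive median turned from -0.10 to 0.0050 with the mean of probe sets and to 0.0054 with unique probe sets, so its direction is not settled. The cause was not tested. The immunoproteasome median for DKO against WT was -0.13 with unique probe sets, which leave out Psmb8. Its median for DKO against p53 KO ran from 0.56 to 0.70. Members at least 2-fold lower numbered 1 in place of 2 for DKO against WT and 0 in place of 2 for DKO against p53 KO with the mean of probe sets. With unique probe sets 1 member, Psmd13, was 2-fold higher for DKO against p53 KO. At 1.5-fold the lower counts were 9 and 10 against WT, and the higher count for DKO against p53 KO was 6. Psmb8 for p53 KO against WT was 0.10 with the mean of its probe sets. Psme2 could not be run. No paired analysis was possible because each genotype has 1 array. Low signal limits Psma8, Psmd9, Psmd10 and Psmg4 most.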

Other observations

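Dimmer probe sets of some members ran against the brightest ones. For Psmd13, a lid subunit, the probe set used gave 1677 for WT, 1492 for p53 KO and 1292 for DKO, while 2 others gave 254, 157 and 409.7, and 197, 125 and 277. For DKO against p53 KO the log2 differences were -0.21, 1.38 and 1.15, so the DKO array was lowest by the brightest probe set and highest by these. For Psme4, a further probe set had signals of 1093, 721 and 402, a log2 difference of -1.44 for DKO against WT beside -0.26 for the probe set used. These probe sets were singled out after their values were seen.

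Over the 3 arrays, the 5 genes nearest to Psmb8 by distance of mean-centred log2 signal were Rhobtb3, Kif3a, Efcab7, 0610009L18Rik and Oprl1, at distances from 0.01 to 0.02. Among 9442 genes compared, 1010 lay within 0.2 of Psmb8, so the pattern is a common one on these arrays.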
